A study of Mus musculus with 6 samples.

Results

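The T and NK cell genes described here are 10 genes, given as a list of names with earlier results of these data known and with no measured value in the rule, out of 55421 genes in the deposited tables. They are 6 genes of T cells (Cd3d, Cd3e, Cd3g, Cd4, Cd8a and Lck) and 4 genes of NK cells (Ncr1, Klrb1c, Nkg7 and Gzma), and each was found in the files. Their RNA was measured in splenic monocytes of C57BL/6 mice with no treatment named in the labels, 3 with an intact interleukin-4 receptor alpha chain (IL-4Rα+/+, replicates 1, 2 and 3) and 3 full knockouts (IL-4Rα-/-, replicates 1, 2 and 3), with 1 library per mouse. The study's methods give an age of 8 to 16 weeks for its animals, and the knockout affects every cell of the mouse, so that any T or NK cell in an IL-4Rα-/- preparation lacked the receptor chain too. Monocytes were isolated from spleen suspensions with a kit that removes other leukocytes by antibody and leaves monocytes unlabelled, and no later sort is described. The comparison of the genotypes asks whether T and NK cell transcripts in the monocyte preparations differed without IL-4Rα.

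T cells recognise antigen through a receptor whose variable chains sit in a complex with the CD3 subunits, which carry the signal into the cell. CD4 and CD8 bind the molecules that present antigen and bring the kinase Lck to the complex. NK cells kill without such a receptor, using activating receptors such as NKp46 (Ncr1) and NK1.1 (Klrb1c), and both NK cells and cytotoxic T cells hold granules with granzymes (Gzma) and the granule membrane protein Nkg7. Monocytes do not make the CD3 complex, whereas Cd4 and Cd8a are also transcribed by subsets of splenic dendritic cells.

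Counted reads per library ranged from 26807281 to 29033297, and levels are given as CPM, counts scaled to a common library total after TMM normalization. Il4ra, the targeted gene, had 137, 128 and 177 CPM in IL-4Rα+/+ and 27.9, 79.4 and 31.8 CPM in IL-4Rα-/- replicates 1 to 3, without overlap, so IL-4Rα-/- replicate 2 kept more of this RNA than the other knockouts. The monocyte label held: 14 monocyte markers summed to 20018 to 24861 CPM in IL-4Rα+/+ and to 21431 to 25738 CPM in IL-4Rα-/-, against 47.2 to 129 CPM for the 10 T and NK cell genes over the 6 libraries. Xist was high in IL-4Rα+/+ replicate 1 (553 CPM) and IL-4Rα-/- replicate 3 (457 CPM) and at most 3.73 CPM in the other libraries, so each genotype held 1 library of the female pattern. Erythroid markers summed to 58.1 to 115 CPM in IL-4Rα+/+ and 160 to 383 CPM in IL-4Rα-/-, neutrophil markers were highest in IL-4Rα-/- replicate 2 (719 CPM against 60.2 to 275 in IL-4Rα+/+), and pancreatic acinar markers reached 331 CPM in the same library against 10.5 to 50.2 CPM in the others. Their part in the results was not tested.

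Cd3d, Cd3e and Cd3g lie together on chromosome 9 of GRCm38, Cd3g from 44969572 to 44980431 on the minus strand, Cd3d from 44981786 to 44987339 on the plus strand and Cd3e from 44998740 to 45009627 on the minus strand. The starts of Cd3g and Cd3d face away from each other with 1354 bases between them, and the ends of Cd3d and Cd3e are 11400 bases apart. The sequences just before these 3 starts and that of the NK cell gene Ncr1 are shown as examples. Their highest libraries were the same in 9 of the 10 members, so this does not set them apart. Any link of these sequences to the levels was not tested. Each run is the stretch from 250 to 21 bases before the RefSeq start, 5′ to 3′ on the gene's own strand in GRCm38.p6, taken from RefSeq's promoter windows. Capitals mark matches, on either strand, to the core letters of 5 motifs. The ETS core, bound by factors such as Ets1 that are active in lymphocytes, was searched as AGGAAG. The RUNX core, bound by factors that shape the T and NK cell lineages, was searched as TGTGGT. The E-box, bound by E proteins of lymphocyte development, was searched as CACCTG. For GATA factors, of which Gata3 is the one in T cells, the letters were AGATAA. For the CRE, bound by the factor Creb1 and its relatives, the letters were TGACGT. 
Cd3d, chr9:44981536-44981765, plus strand: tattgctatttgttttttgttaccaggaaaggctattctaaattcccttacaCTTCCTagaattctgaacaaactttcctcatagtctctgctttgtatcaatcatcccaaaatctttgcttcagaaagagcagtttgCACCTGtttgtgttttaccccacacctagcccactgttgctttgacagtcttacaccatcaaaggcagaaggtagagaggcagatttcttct
Cd3e, chr9:45009632-45009861, minus strand: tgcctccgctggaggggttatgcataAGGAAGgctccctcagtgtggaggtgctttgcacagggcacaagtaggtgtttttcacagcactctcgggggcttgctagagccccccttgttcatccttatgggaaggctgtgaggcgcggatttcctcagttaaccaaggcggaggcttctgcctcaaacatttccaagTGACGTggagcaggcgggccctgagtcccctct
Cd3g, chr9:44980452-44980681, minus strand: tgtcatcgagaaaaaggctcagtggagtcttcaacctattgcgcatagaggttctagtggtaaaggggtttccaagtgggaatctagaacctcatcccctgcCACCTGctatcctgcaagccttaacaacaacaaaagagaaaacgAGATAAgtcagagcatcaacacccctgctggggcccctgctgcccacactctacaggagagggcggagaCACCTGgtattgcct
Ncr1, chr7:4337465-4337694, plus strand: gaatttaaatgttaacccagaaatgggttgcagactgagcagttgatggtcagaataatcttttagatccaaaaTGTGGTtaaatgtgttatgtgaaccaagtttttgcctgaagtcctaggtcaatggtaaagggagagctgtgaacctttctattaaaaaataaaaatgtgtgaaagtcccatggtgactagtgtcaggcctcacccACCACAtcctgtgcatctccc

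Cd3d held an ETS match on the other strand and an E-box, Cd3e an ETS match and a CRE, and Cd3g 2 E-boxes and a GATA match. Ncr1 held 2 RUNX matches and none of the other letters. RefSeq windows were found for 9 of the 10 genes, all but Cd4, and every start of a gene in that table was searched. An ETS match was present in 5 of the 9, a RUNX match in 5, an E-box in 4, a GATA match in 1 and a CRE in 1. Among all 32851 windows of this length, 27.2% held the ETS letters, 13.2% the RUNX letters, 16% the E-box, 9.49% the GATA letters and 5.64% the CRE. These shares are per window, whereas a member counted with a match in any of its windows, and Lck and Ncr1 had 2 each. The E-box of Lck lay in only 1 of its 2 windows. That window and those of Klrb1c and Nkg7 overlapped the annotated gene, so the counts and shares are not strictly comparable. A match of this kind describes the letters only.

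No difference between the genotypes was detected for any of the 10 genes. All 10 had enough counts to be tested, 0 passed an adjusted p of 0.15 in edgeR's quasi-likelihood test, against 0 of all 13849 genes tested (0%), and 0 had an unadjusted p under 0.05, against 8.09% of all genes (3.72% higher and 4.37% lower in IL-4Rα-/-). No member had genotypes that did not overlap, where 15.5% of all genes did (7.63% higher and 7.87% lower in IL-4Rα-/-). DESeq2 at the same threshold called 0 of the 10 and 80 of the 14003 genes given an adjusted p (0.571%). Its unadjusted p was under 0.05 for 1208 of a wider set of 25728 genes. Even Il4ra, the targeted gene, did not pass in edgeR's test (log2 fold change -1.67, adjusted p = 0.618), whereas DESeq2 gave it an adjusted p of 0.0111. A count of 0 in edgeR's test therefore says little by itself. The log2 fold change of IL-4Rα-/- over IL-4Rα+/+ was above 0 for 6 members, where 51.5% of all genes were, and below 0 for 4, with a median of 0.11, against a median of 0.01 over all genes. Mice of the same genotype lay far apart. In 9 of the 10, all but Cd4, IL-4Rα+/+ replicate 2 and IL-4Rα-/- replicate 3 were the 2 highest libraries, which was so for 6.56% of all genes.

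**Figure D1:**
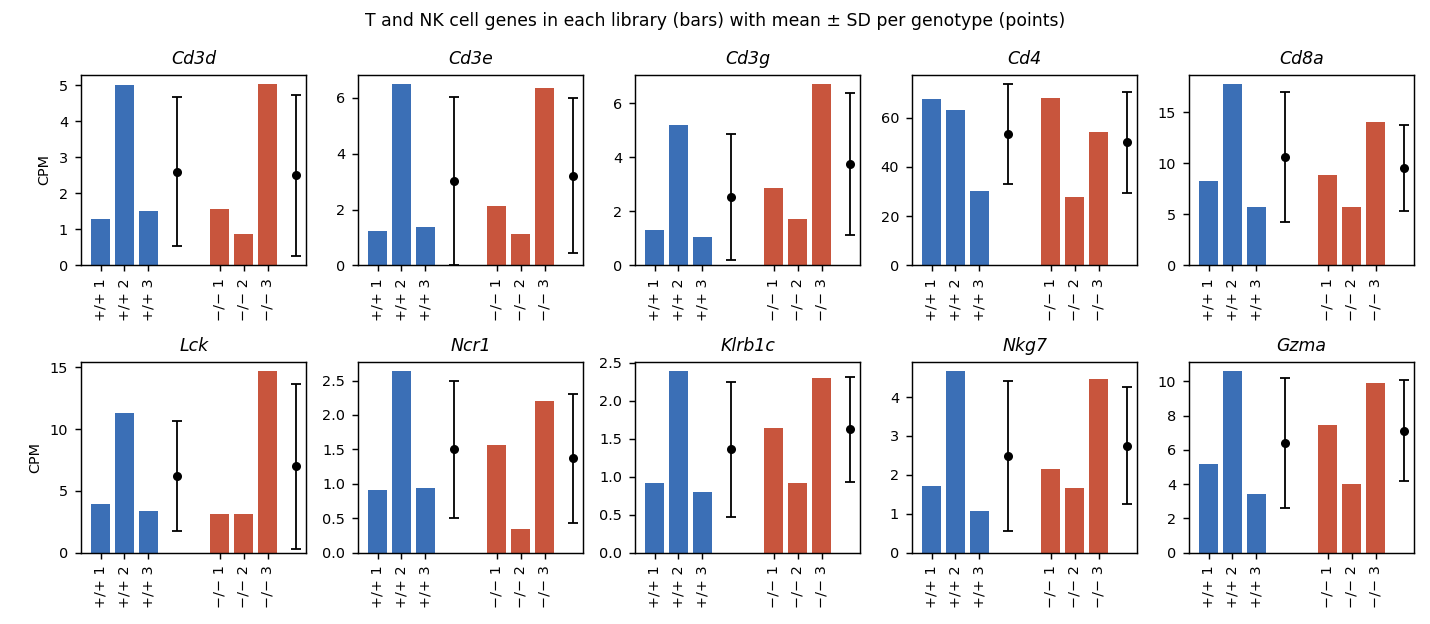
Level of each of the 10 T and NK cell genes in each library, in CPM, with a bar for each IL-4Rα+/+ and IL-4Rα-/- mouse and black points giving the mean ± SD of the 3 mice beside them. In every panel but Cd4, 1 mouse of each genotype lies above the other 4, and for Cd3e these are 6.51 and 6.36 CPM against 1.12 to 2.14 CPM.

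The CD3 subunits were low in most libraries and several-fold higher in 1 mouse of each genotype. Cd3e, the epsilon subunit (ENSMUSG00000032093.7), had 35, 180 and 36 counts in IL-4Rα+/+ replicates 1, 2 and 3 and 60, 32 and 188 counts in IL-4Rα-/- replicates 1, 2 and 3, or 1.23, 6.51, 1.36, 2.14, 1.12 and 6.36 CPM. A single mouse of each genotype was high and the rest low, and the groups overlapped over nearly their whole range. The means were 3.03 ± 3.01 CPM (SD, n = 3) in IL-4Rα+/+ and 3.21 ± 2.78 CPM (SD, n = 3) in IL-4Rα-/-, a log2 fold change of 0.08 (SE 0.86, 95% interval -1.97 to 2.13, adjusted p = 0.979). Counting error was small beside this spread, since the exact Poisson 95% interval was 155 to 208 for the 180 counts and 24.4 to 48.7 for the 35 counts, and these intervals cover counting error only. Cd3d, the delta subunit, had 1.3, 4.99 and 1.51 CPM in IL-4Rα+/+ and 1.57, 0.876 and 5.04 CPM in IL-4Rα-/- replicates 1 to 3. The same mice were high, and the log2 fold change was -0.06 (SE 0.78, 95% interval -1.92 to 1.80, adjusted p = 0.984). Cd3g, the gamma subunit, had 1.3, 5.21 and 1.06 CPM in IL-4Rα+/+ and 2.86, 1.72 and 6.73 CPM in IL-4Rα-/-. Here the remaining IL-4Rα-/- mice lay above the remaining IL-4Rα+/+ mice, but IL-4Rα+/+ replicate 2 still exceeded both of them. Its log2 fold change of 0.58 (SE 0.75, 95% interval -1.21 to 2.37, adjusted p = 0.809) was the largest of the 10 members and did not pass the test.

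In such bulk RNA, fewer cells of a type and less RNA per cell cannot be told apart. The ratio of Cd3d to Cd3e counts stayed between 0.733 and 1.11 over the 6 libraries and that of Cd3g to Cd3e between 0.778 and 1.53. The Cd3e level covered a wider range than either ratio. Cd3e overlaps the exons of an annotated antisense gene (Gm48719), and the strand setting behind the counts is not given in the sources used here, so its reads cannot be assigned to strand with certainty.

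Lck, the kinase that starts T cell receptor signalling, had 3.94, 11.3 and 3.4 CPM in IL-4Rα+/+ and 3.11, 3.15 and 14.7 CPM in IL-4Rα-/- replicates 1 to 3. IL-4Rα+/+ replicate 2 and IL-4Rα-/- replicate 3 again stood above the other mice. Means were 6.22 ± 4.43 and 6.98 ± 6.67 CPM (SD, n = 3 each), with a log2 fold change of 0.17 (SE 0.75, 95% interval -1.63 to 1.97, adjusted p = 0.949). Lck shares exon sequence with an annotated miRNA on the same strand. Cd8a, the alpha chain of the coreceptor of cytotoxic T cells, had 8.29, 17.8 and 5.74 CPM in IL-4Rα+/+ and 8.89, 5.71 and 14 CPM in IL-4Rα-/-. The 2 highest mice were those of the CD3 genes, with a narrower distance between high and low mice. The log2 fold change was -0.16 (SE 0.49, 95% interval -1.32 to 1.01, adjusted p = 0.925). Cd8a counts per Cd3e count ran from 2.2 in IL-4Rα-/- replicate 3 and 2.74 in IL-4Rα+/+ replicate 2, the libraries richest in Cd3e, to 6.74 in IL-4Rα+/+ replicate 1.

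Cd4, the coreceptor of helper T cells, did not follow the CD3 genes. It had 67.4, 62.9 and 30.3 CPM in IL-4Rα+/+ and 67.9, 27.7 and 54.3 CPM in IL-4Rα-/- replicates 1 to 3. IL-4Rα+/+ replicate 1 and IL-4Rα-/- replicate 1 were highest here although their CD3 levels were far from the highest, and IL-4Rα+/+ replicate 3 and IL-4Rα-/- replicate 2 were lowest. The genotypes overlapped, with means of 53.5 ± 20.3 and 50 ± 20.5 CPM (SD, n = 3 each) and a log2 fold change of -0.10 (SE 0.40, 95% interval -1.06 to 0.86, adjusted p = 0.943). There were 54.8, 9.66 and 22.3 Cd4 counts per Cd3e count in IL-4Rα+/+ and 31.7, 24.7 and 8.54 in IL-4Rα-/-, a 6.41-fold range across the mice. Cd4 made up between 53.7% and 80.8% of the summed CPM of the 6 T cell genes. That sum was nevertheless highest in IL-4Rα+/+ replicate 2 (109 CPM) and IL-4Rα-/- replicate 3 (101 CPM), the mice high in CD3, and lowest in IL-4Rα-/- replicate 2 (40.2 CPM) and IL-4Rα+/+ replicate 3 (43.3 CPM).

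**Figure D2:**
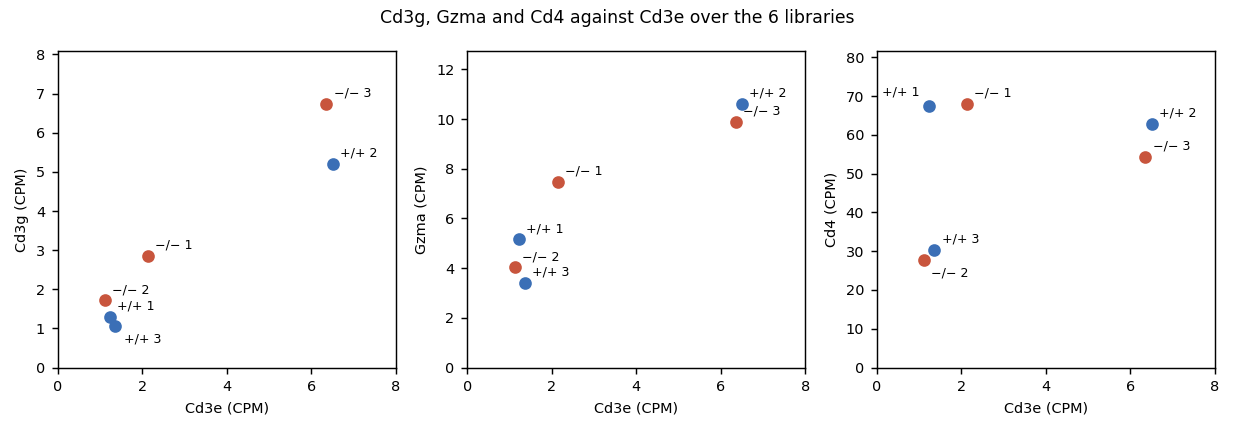
Levels of Cd3g, Gzma and Cd4 against Cd3e in the 6 libraries, all in CPM, with a point per mouse coloured by genotype and labelled by replicate. Cd3g and Gzma are highest where Cd3e is highest, while Cd4 is 67.4 and 67.9 CPM in 2 mice in which Cd3e is 1.23 and 2.14 CPM.

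Over the 6 libraries, the Pearson correlation of log2 CPM of Cd4 with the other 9 members ran from 0.373 to 0.742 (median 0.571). The 36 pairs among those 9 ran from 0.747 to 0.979 (median 0.907). IL-4Rα+/+ replicate 2 and IL-4Rα-/- replicate 3 were the 2 highest libraries in each of those 9, so these values lean on 2 mice. Cd4 was closer to genes of the patrolling Ly6C-low monocyte, with 0.961 for Spn (CD43), 0.924 for Ace and 0.926 for Treml4. Among other monocyte markers, Cd4 was at 0.844 with Csf1r but at -0.714 with Ly6c2 and -0.837 with Ccr2. With genes of dendritic cells it varied, at 0.844 for Clec9a and 0.393 for Cd209a, while Cd209a reached 0.903 with Cd3d and 0.942 with Cd3e. The choice of these comparison genes followed a look at their values, and the points share library, depth and cell preparation. Spn itself had 1186, 849 and 401 CPM in IL-4Rα+/+ and 808, 280 and 722 CPM in IL-4Rα-/- replicates 1 to 3, low in the same mice as Cd4. The 14 dendritic cell markers summed to 310 to 398 CPM in IL-4Rα+/+ and 305 to 342 CPM in IL-4Rα-/-, none of them at 0 in all libraries. Single markers varied more than this sum, as Clec9a had 15.7, 22.9 and 8.34 CPM in IL-4Rα+/+ and 11.4, 4.52 and 11.9 CPM in IL-4Rα-/-. In 5 of the 14 (35.7%), IL-4Rα+/+ replicate 2 and IL-4Rα-/- replicate 3 were the highest libraries, against 6.56% of all genes. Batf3 alone of the 14 had an unadjusted p under 0.05 in edgeR's test, where 8.09% of all genes did. Its unadjusted p was 0.0299 (log2 fold change -0.45, SE 0.16, adjusted p = 0.618). The part of dendritic cells in the Cd4 and Cd8a levels was not tested.

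The NK cell genes had the same 2 highest libraries as the CD3 genes. Ncr1, which encodes the receptor NKp46, had 26, 73 and 25 counts in IL-4Rα+/+ and 44, 10 and 65 counts in IL-4Rα-/- replicates 1 to 3. It was highest in IL-4Rα+/+ replicate 2 and IL-4Rα-/- replicate 3 and lowest in IL-4Rα-/- replicate 2, whose 10 counts have an exact Poisson 95% interval of 4.8 to 18.4. As CPM these were 0.913, 2.64, 0.944, 1.57, 0.35 and 2.2, with a log2 fold change of -0.13 (SE 0.71, 95% interval -1.82 to 1.57, adjusted p = 0.961). Klrb1c, the NK1.1 antigen, had 0.913, 2.39 and 0.793 CPM in IL-4Rα+/+ and 1.64, 0.911 and 2.3 CPM in IL-4Rα-/-. The genotypes overlapped, and the log2 fold change was 0.24 (SE 0.54, 95% interval -1.04 to 1.53, adjusted p = 0.887). Klrb1c shares exons with another annotated protein-coding gene on its strand (Gm44511), so reads that fit both could be lost.

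Nkg7, the granule membrane protein, had 1.72, 4.67 and 1.06 CPM in IL-4Rα+/+ and 2.14, 1.65 and 4.46 CPM in IL-4Rα-/- replicates 1 to 3. The same mice were high in both genotypes. Its log2 fold change was 0.15 (SE 0.63, 95% interval -1.35 to 1.64, adjusted p = 0.946). Gzma, granzyme A, was the strongest of the NK cell genes per length, with 5.16, 10.6 and 3.4 CPM in IL-4Rα+/+ and 7.46, 4.03 and 9.88 CPM in IL-4Rα-/-. Again the genotypes overlapped, with means of 6.4 ± 3.77 and 7.12 ± 2.94 CPM (SD, n = 3 each) and a log2 fold change of 0.15 (SE 0.49, 95% interval -1.01 to 1.32, adjusted p = 0.926). Summed over the 4 NK cell genes the level was 8.71, 20.3 and 6.19 CPM in IL-4Rα+/+ and 12.8, 6.94 and 18.8 CPM in IL-4Rα-/-, or 11.7 ± 7.54 and 12.9 ± 5.95 CPM (SD, n = 3 each). The 5 T cell genes without Cd4 summed to 16.1, 45.9 and 13.1 CPM in IL-4Rα+/+ and 18.6, 12.6 and 46.8 CPM in IL-4Rα-/-, or 25 ± 18.1 and 26 ± 18.3 CPM (SD, n = 3 each). Both sums were highest in IL-4Rα+/+ replicate 2 and IL-4Rα-/- replicate 3 and overlapped between the genotypes.

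**Figure D3:**
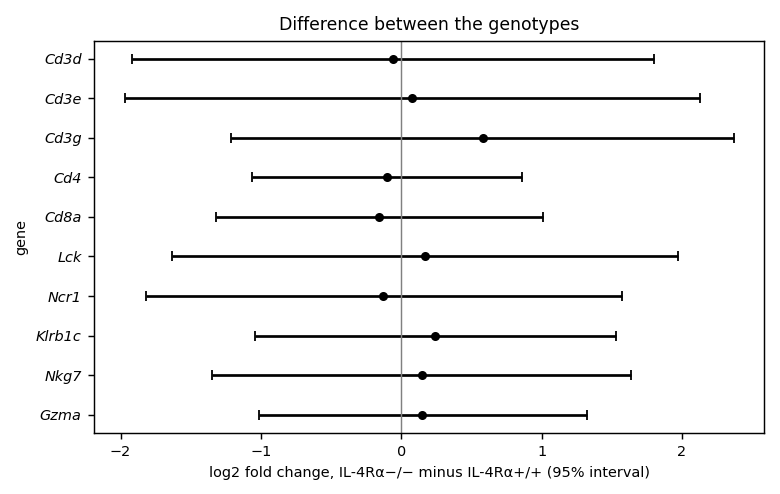
Log2 fold change of IL-4Rα-/- over IL-4Rα+/+ for each of the 10 genes, with points for edgeR's estimate and bars for its 95% interval, from 3 mice per genotype. Every interval spans 0, the narrowest that of Cd4 (-1.06 to 0.86) and the widest that of Cd3e (-1.97 to 2.13).

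The precision of these comparisons was limited by the spread between mice. The biological coefficient of variation in edgeR was 71.4% for Cd3e, 65.8% for Cd3d, 63.4% for Cd3g and 63.2% for Lck, against 17.5% for the median gene, and it placed these 4 genes between the percentiles 97.7 and 98.5 of dispersion. Ncr1 (60.4%), Nkg7 (54.3%), Klrb1c (47%), Gzma (43.4%) and Cd8a (42.8%) were also above the median gene, and Cd4 was lowest of the members at 34.7%. The intervals leave room for changes in either direction, so the tests do not show that the genotypes were alike. The direction of the difference turned in each of the 10 genes with at least 1 library left out. Without IL-4Rα+/+ replicate 2 it turned for Cd3d (0.83), Cd4 (0.03), Cd8a (0.44) and Ncr1 (0.56), and without IL-4Rα-/- replicate 3 for Cd3e (-0.89), Cd3g (-0.14), Lck (-0.99), Klrb1c (-0.10), Nkg7 (-0.39) and Gzma (-0.15). Each of the other 4 libraries turned between 1 and 5 of the genes. Cd3g had an unadjusted p of 0.044 in edgeR's test without IL-4Rα+/+ replicate 2 (adjusted p = 0.901). No member passed the threshold in any of these fits, and neither did any other gene.

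Levels per length, as CPM per kb of exon, allow the members to be ordered. Cd4 was highest with a mean of 12.8 (6.86 to 16.8 over the 6 libraries), followed by Gzma with 6.72 (3.38 to 10.6), and each was above the next gene in all 6 libraries. Nkg7 (2.86) and Cd8a (2.77) did not separate, with Nkg7 the higher in 3 of 6 libraries, and Cd8a was above Lck (2.25) in 5 of 6. Lck was above Cd3d (1.4) in 6 of 6 libraries. Cd3d, Cd3g (0.962), Ncr1 (0.933), Cd3e (0.765) and Klrb1c (0.504) had ranges that overlapped, and each was above the next in 2 to 4 of 6 libraries. The CD3 subunits stood under Cd4 in every library.

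Other genes of the T cell receptor and its signalling were mostly highest in the same 2 mice as the CD3 genes. Of 23 listed genes 19 could be tested, 0 passed the adjusted threshold and 0 had an unadjusted p under 0.05, 10 had a log2 fold change above 0 and 9 below 0, and the median was 0.03 (range -0.64 to 0.76). In 13 of the 19 (68.4%), IL-4Rα+/+ replicate 2 and IL-4Rα-/- replicate 3 were the highest libraries. Trac, the constant region of the receptor's alpha chain, had 1.41, 6.26 and 1.7 CPM in IL-4Rα+/+ and 1.32, 1.02 and 5.82 CPM in IL-4Rα-/- replicates 1 to 3. This is the CD3 pattern, and Trac was named after its values were seen. Trdc, the constant region of the delta chain of gamma-delta T cells, also named after its values were seen, was instead highest in IL-4Rα-/- replicate 1, with 163 counts against 24 to 106 counts in the other libraries. The number of Trdc counts per Trac count was 4.41 in that mouse and 0.517 to 1.38 in the other 5. Lcp2 (the adaptor SLP-76) and Fyn (a kinase related to Lck), the listed genes with the highest levels per length, did not show the CD3 pattern. Fyn had 273, 202 and 130 CPM in IL-4Rα+/+ and 226, 133 and 171 CPM in IL-4Rα-/-, with a log2 fold change of -0.19 (SE 0.30, adjusted p = 0.845). Lcp2 was even across mice, between 375 and 448 CPM, with a log2 fold change of -0.08 (SE 0.10, adjusted p = 0.804), and both genes are also used by myeloid cells.

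Of 18 surface and lineage genes of T cells, 15 were tested, with 0 past the adjusted threshold, 0 at an unadjusted p under 0.05 and a median log2 fold change of 0.03 (range -0.47 to 0.36). The 2 mice high in CD3 were the highest libraries in 11 of the 15 (73.3%). Tcf7, a transcription factor of naive and memory T cells, had 13.2, 23.2 and 6.42 CPM in IL-4Rα+/+ and 9.39, 4.62 and 22.8 CPM in IL-4Rα-/-, with a log2 fold change of -0.22 (SE 0.66, adjusted p = 0.921). Ccr7, the receptor that guides lymphocytes and dendritic cells to lymphoid tissue, was instead highest in IL-4Rα+/+ replicate 1, with 63.2, 38.2 and 19.8 CPM in IL-4Rα+/+ and 31.3, 16.8 and 39.3 CPM in IL-4Rα-/-, and its log2 fold change was -0.47 (SE 0.46, adjusted p = 0.762).

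Among 24 NK cell receptors and lineage genes, 20 were tested, 0 passed the adjusted threshold or an unadjusted p of 0.05, and the median log2 fold change was -0.10 (range -0.62 to 0.67). The 2 mice high in CD3 were the highest libraries in 11 of the 20 (55%). Genotypes were apart in 1 of the 20, where 7.87% of all genes were lower without overlap: Klrb1b, an inhibitory receptor of the NK1.1 family named here after its values were seen, had 1.09, 1.56 and 1.17 CPM in IL-4Rα+/+ and 0.857, 1.02 and 0.913 CPM in IL-4Rα-/-, with a log2 fold change of -0.45 (SE 0.27, adjusted p = 0.656). S1pr5, the sphingosine phosphate receptor that NK cells and patrolling monocytes use to leave tissues, had 372, 235 and 88.6 CPM in IL-4Rα+/+ and 204, 64.7 and 183 CPM in IL-4Rα-/-. Its lowest mice were those with the lowest Cd4, and the log2 fold change was -0.62 (SE 0.59, adjusted p = 0.757). Cd244a, a receptor that is not confined to NK cells, lay between 235 and 321 CPM in all 6 libraries (log2 fold change -0.17, SE 0.13, adjusted p = 0.711).

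Of 11 further granule and effector genes, 5 were tested and 0 passed, with a median log2 fold change of 0.07 (range -0.38 to 0.35). Prf1, the pore-forming perforin and a gene named after its values were seen, had 1.48, 4.2 and 1.32 CPM in IL-4Rα+/+ and 1.5, 1.3 and 4.23 CPM in IL-4Rα-/-. Ctsw, a protease of cytotoxic cells, was likewise high in the CD3-high mice, with 0.738, 3.76 and 1.06 CPM in IL-4Rα+/+ and 1.43, 0.665 and 4.97 CPM in IL-4Rα-/- (log2 fold change 0.35, SE 0.88, adjusted p = 0.906). Ccl5, a chemokine, had 158, 98 and 48.7 CPM in IL-4Rα+/+ and 100, 34.6 and 98.6 CPM in IL-4Rα-/-, low in the mice in which Cd4 and S1pr5 were low (log2 fold change -0.38, SE 0.52, adjusted p = 0.817). Gzmk had 0 counts in all 6 libraries.

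Genes of type 2 helper T cells and type 2 innate lymphoid cells, the lymphocytes that make interleukin-4 and its relatives, were mostly too low to test. Only 2 of 8 listed genes had enough counts, Il5 had 0 counts in every library, and Il4 had at most 0.302 CPM. Il1rl1, the interleukin-33 receptor, did not pass the test (log2 fold change 0.04, SE 0.42, adjusted p = 0.979). Maf, a transcription factor of type 2 helper T cells and also of macrophages, had 128, 121 and 116 CPM in IL-4Rα+/+ and 218, 154 and 131 CPM in IL-4Rα-/-. The genotypes did not overlap, but the log2 fold change of 0.46 (SE 0.19, unadjusted p = 0.0435, adjusted p = 0.618) did not pass the adjusted threshold. Higher levels without overlap were found in 7.63% of all genes.

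**Figure D4:**
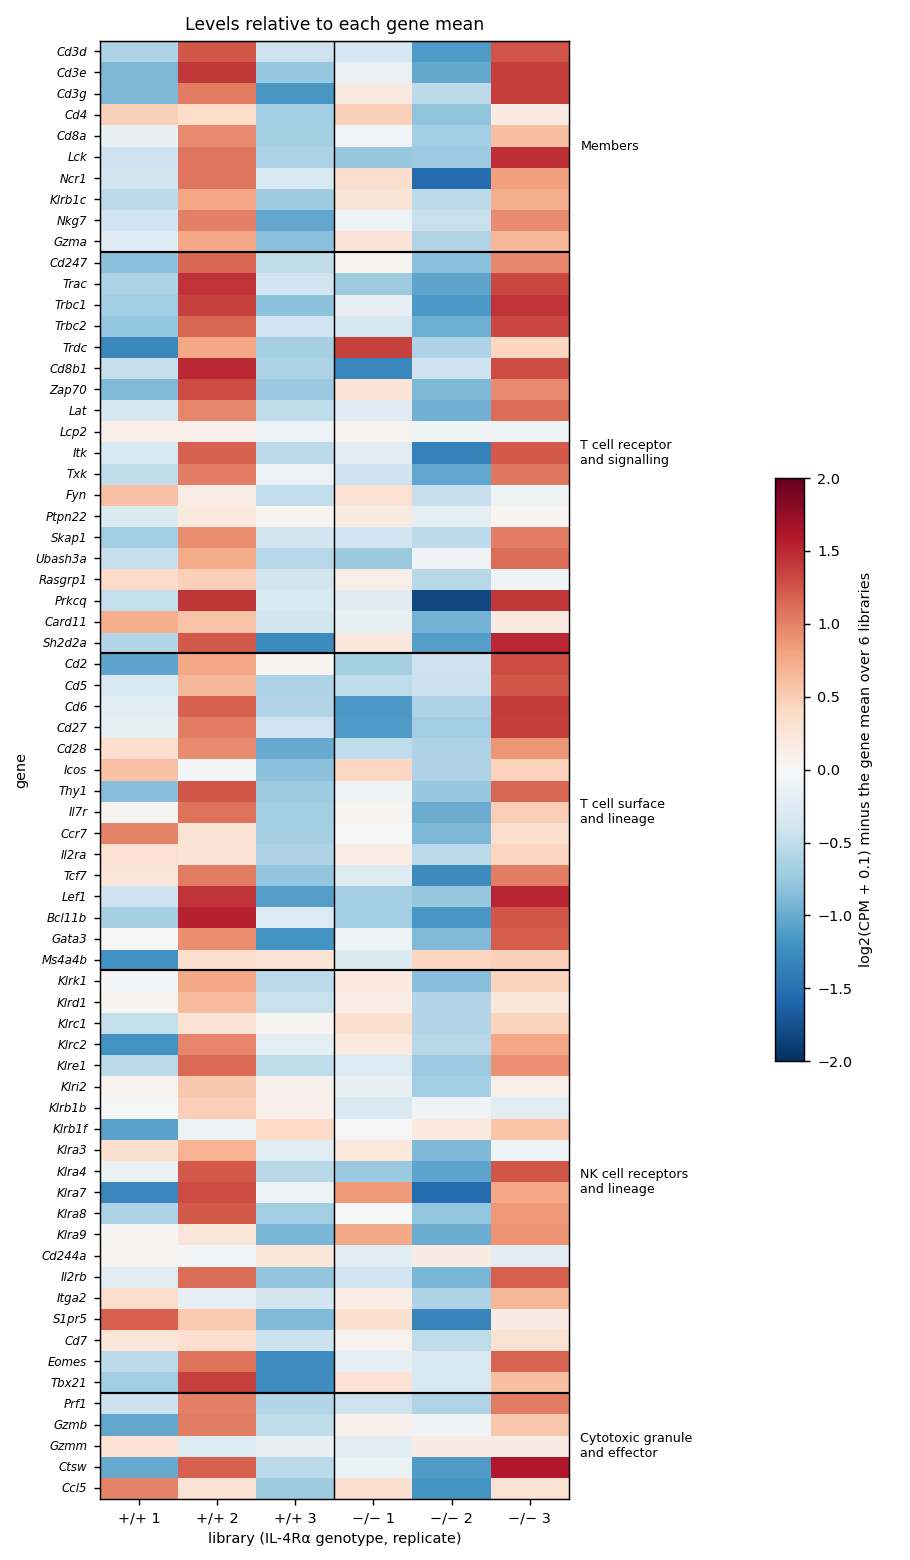
Log2 level of the 10 members and of the tested genes of 4 T and NK cell lists in each library, each gene relative to its own mean over the 6 libraries (colour scale from -2 to 2, after adding 0.1 to the CPM). Most rows are red in IL-4Rα+/+ replicate 2 and IL-4Rα-/- replicate 3, while Cd4, Fyn, Ccr7, S1pr5 and Ccl5 are red in IL-4Rα+/+ replicate 1, and Trdc is reddest in IL-4Rα-/- replicate 1.

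B cell genes were high in the same mice as the CD3 genes. The 10 B cell markers summed to 93, 155 and 73 CPM in IL-4Rα+/+ and 123, 73.5 and 233 CPM in IL-4Rα-/- replicates 1 to 3, and in 9 of the 10 the highest libraries were IL-4Rα+/+ replicate 2 and IL-4Rα-/- replicate 3. None of the 10 was at 0 in all libraries, and none passed the test between genotypes (median log2 fold change 0.71). Over the 6 libraries, the correlation of log2 CPM with Cd79a, a subunit of the B cell receptor complex, was 0.988 for Lck, 0.956 for Cd3d and 0.941 for Cd3e, against 0.339 for Cd4. Without IL-4Rα+/+ replicate 2 and IL-4Rα-/- replicate 3, that of Lck was 0.427 over the other 4 libraries, so its high value rested on those 2 mice. These points share library, depth and cell preparation, and the part of B cells in the T and NK cell levels was not tested. Leaving out both CD3-high mice keeps 2 mice per genotype and was chosen after the data were seen. In that fit 0 of the 10 members passed the threshold, against 0 of all 13887 genes tested.

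**Figure D5:**
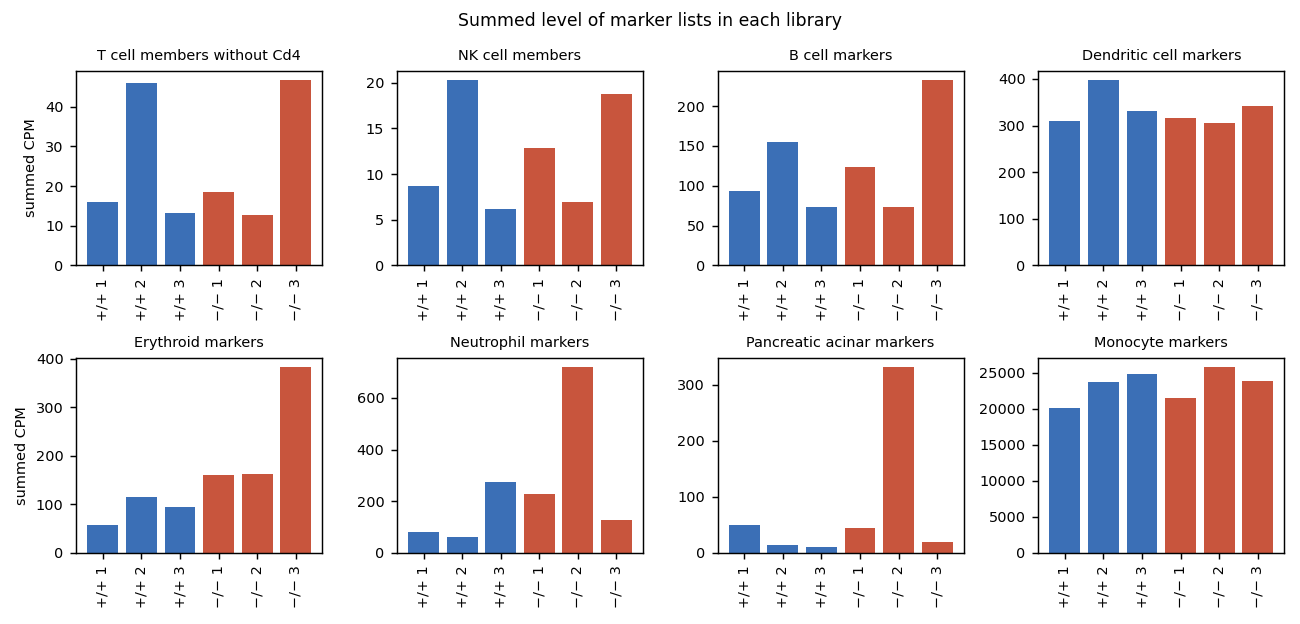
Summed level in CPM of each list of cell type markers in each library of IL-4Rα+/+ and IL-4Rα-/- mice. The T cell genes without Cd4, the NK cell genes and the B cell markers are highest in IL-4Rα+/+ replicate 2 and IL-4Rα-/- replicate 3, for the T cell genes without Cd4 at 45.9 and 46.8 CPM against 12.6 to 18.6 CPM in the other mice.

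Genes outside the members whose log2 CPM followed the summed T cell genes most closely over the 6 libraries were Tfdp2 (Pearson r 0.990), Dnajc8 (0.989), Arhgap27os2 (0.989), Ms4a14 (0.987) and Itih5 (0.985). Cd4 made up 53.7% to 80.8% of that sum, yet the sum was highest in the mice high in CD3. Tfdp2 was also highest there, with 498 counts in IL-4Rα+/+ replicate 2 and 515 in IL-4Rα-/- replicate 3. The ranking therefore reflects Cd4 and the other T cell genes together. The gene closest to Cd4 alone was Fcrl1 (0.995). The gene closest to Cd3d alone was Gimap3 (0.997), and that closest to Cd3e alone was Bend3 (0.998). For the summed NK cell genes they were D330023K18Rik (0.998), Gimap1os (0.997), Sh2d2a (0.991), Ifit2 (0.986) and C030034L19Rik (0.983). The values were ranked over all tested genes on only 6 points that share library and depth, so they are a description. Itih5, Gimap1os and C030034L19Rik had mean levels of 0.271, 0.435 and 0.277 CPM and rest on few counts.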

How the data were processed

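Messenger RNA of splenic monocytes was measured in 6 mice, 3 per genotype, by single-end reads of 75 bases. Per the study's methods and the submitters' processing notes, the authors aligned the reads to GRCm38 with STAR 2.6.1a and deposited the counts of reads per gene of a Gencode annotation, without normalization. Which strand column was kept is not given in the sources used here. Lines of reads not assigned to genes, 21.1% to 22.8% of a library, were left out. Symbols, positions and exon lengths came from Gencode M21, in which 55240 of 55421 identifiers were found.

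Genes were filtered with filterByExpr (minimum count 10), which left 13849, and scaled by TMM. Genotypes were compared in edgeR 4.0.16 (R 4.3.3) by glmQLFit and glmQLFTest. The p-values were adjusted over all genes tested by the method of Benjamini and Hochberg, at the study's threshold of 0.15. Intervals of log2 fold changes are 95% intervals from the same fit. DESeq2 1.42.0 was an alternative. The steps were tested on simulated data. Replicates are separate mice. The alternatives changed the normalization, filter, threshold, test, covariates, length trend and block, and left out libraries. The members and lists were chosen with earlier results of these data known. Genes named besides the members were the 2 with the highest level per length in each T and NK cell list, those with the smallest unadjusted p under 0.05, and the 5 most like each sum, except where the text says otherwise.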

Additional observations from a re-analysis of the deposited data

How the results depend on the processing

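The count of members past the threshold was 0 in each of the 15 alternatives, as were the counts for the T cell and NK cell lists. The 10 members gave 140 alternative values of their log2 fold changes, of which 110 kept the direction, 30 reversed it and 0 passed the threshold, with adjusted p from 0.615 to 0.995. Over all genes, 0 were called in the edgeR alternatives, and DESeq2 called 80. edgeR had 1120 genes at an unadjusted p under 0.05 and a smallest adjusted p of 0.618.

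Leaving out each library in turn moved the log2 fold change between -1.09 and 0.83 for Cd3d, between -0.89 and 1.31 for Cd3e, between -0.14 and 1.67 for Cd3g, between -0.39 and 0.19 for Cd4, between -0.54 and 0.44 for Cd8a and between -0.99 and 0.93 for Lck. For the NK cell genes it lay between -0.64 and 0.56 (Ncr1), -0.10 and 0.92 (Klrb1c), -0.39 and 0.98 (Nkg7) and -0.15 and 0.73 (Gzma). The highest values came without IL-4Rα+/+ replicate 2 in 9 of the 10 genes, and without IL-4Rα-/- replicate 2 for Cd4. The difference of the summed NK cell genes, 1.12 CPM with all mice, lay between -1.87 and 5.41 CPM, the highest without IL-4Rα+/+ replicate 2, and that of the summed T cell genes between -20.2 and 15.3 CPM.

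With Xist as a covariate, Cd3e was at -0.18 and Lck at -0.18. Without both CD3-high mice, chosen after seeing the data, the direction turned for Cd8a (0.05), Lck (-0.24) and Ncr1 (0.04). The largest value in that fit was that of Cd3g, at 0.94 (SE 0.40, adjusted p = 0.934 in edgeR's test). The cause was not tested.

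Same-numbered libraries did not pair: their deviations from the group means correlated at -0.128 on average, and 1 of 3 correlated best with its own number. In the fit with a replicate block, 0 genes and 0 members were called, 765 genes had an unadjusted p under 0.05, and Lck was at -0.06. Only 3 mice per genotype and few counts for Ncr1 and Klrb1c limit the precision.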
